A study of Mus musculus with 5464 samples.

Results

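Kidney endothelial cells (EC) of BTBRob/ob mice were compared between 6 and 11 weeks of age. The comparison holds 1542 of the 5464 cells of the series, 675 cells at 6 weeks and 867 at 11 weeks, on 7 of its 22 plates. The members were all cells labelled ob/ob on plates 062s, 066s and 067s (6 weeks) and on plates 1052s, 1053s, 1054s and 1056s (11 weeks). The mice were females lacking leptin, the adipocyte hormone that restrains food intake. The labels give them as diabetic and name the C57BL/6 strain, while the methods give BTBR, which is used here. BTBRLean littermates with at least 1 working copy of the leptin gene, at 6 weeks (1058 cells on 4 plates) and 11 weeks (1375 cells on 5 plates), are given beside them, and ob/ob plates of 20 weeks where a level bears on a result. Lep itself was not analysed here.

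In all groups the papilla was removed, the kidney was dissociated with Liberase, and living Pecam1+ cells were sorted 1 per well and sequenced by SmartSeq2, which amplifies full-length cDNA without molecular identifiers. The methods give 3 mice per genotype and age, and 2 for Lean at 6 weeks, but the labels name no animal, so each group was 1 sample with plates as technical batches. No p-value was therefore computed, and age cannot be told apart from plate. The age question is what differed in the renal endothelium between the younger and the older ob/ob mice. Of these ages, the methods give blood glucose and urinary albumin for the older only. A passage from obesity into overt diabetes between them was therefore not tested.

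As background, the renal endothelium is divided among fenestrated glomerular EC (GEC), fenestrated peritubular capillary EC (PCEC), afferent and efferent arteriolar EC (AA and EA), descending vasa recta (DVR), venous EC and lymphatic EC. Capillary EC take up fatty acids released from lipoproteins and pass them to the tubules, but themselves derive much of their energy from glycolysis. EC also display peptides on MHC class I and, in some capillary beds, on MHC class II. In ob/ob mice, loss of the leptin signal leads to obesity, insulin resistance, hyperglycemia and albuminuria.

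All counts of a plate were summed over autosomal and mitochondrial genes and scaled to 500000, so every level below is in counts per 500000 of the plate sum. A difference is the mean of log2(level + 1) over 11-week plates minus that over 6-week plates, which understates changes of low genes. A gene was called when it differed by at least 1.5-fold and the plates of the ages did not overlap, among 9488 genes with a mean level of at least 5. In plate sums, fewer cells of a type and less RNA per cell cannot be told apart.

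The plates were uneven within each age. Median counts per cell were 259959 to 363167 at 6 weeks and 187240 to 381783 at 11 weeks, and mitochondrial genes held 0.945% to 1.16% of counts. Median genes detected per cell were 3622 to 6588 at 6 weeks and 2570.5 to 5431 at 11 weeks. After thinning to 50000 counts per cell they were 2383 to 3281.5 and 1769.5 to 2794. The ranges overlapped but lay lower at 11 weeks, and the part of this in the calls was not tested. The endothelial list of 10 markers, including Pecam1, Cdh5 and Tie1, had no called member and summed to 7557 to 8594 at 6 weeks and 7321 to 10283.5 at 11 weeks, while leukocyte markers summed to at most 4.73, with Adgre1 and Cd3e at 0 on all 7 plates. On plates 066s and 067s, 72.0% and 68.2% of cells carried a count of a GEC, an AA, an EA and a DVR marker together after thinning to 50000 counts per cell, against 21.9% on plate 062s and 4.57% to 22.6% on the 11-week plates. Marker shares of cells are therefore not read as cell types. Tubular epithelium markers summed to 8.32 to 17.6 at 6 weeks but to 129.5, 110.5, 55.3 and 8.73 on plates 1052s, 1053s, 1054s and 1056s. The 11-week plates also fell into pairs, 1052s with 1053s and 1054s with 1056s. The results for the main gene groups are also given with each pair alone and with plate 062s as the only 6-week plate, alternatives chosen after the data were seen. Plates that do not overlap cannot overlap when fewer are used, so a call repeated there rests on the fold and the floor alone. More genes are also called with fewer plates. All 7 plates gave 166 higher and 472 lower, plates 1052s and 1053s alone 811 and 876, and plates 1054s and 1056s alone 759 and 1677. Plate 062s as the only 6-week plate gave 611 and 946. Leaving out plate 062s gave 335 and 917, and leaving out plate 1052s gave 321 and 852.

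From 6 to 11 weeks, more genes fell than rose. Of the 9488 genes, 166 were called higher (1.75%) and 472 lower (4.97%), with a median difference over all genes of -0.08. Genes called lower were at slightly lower levels than all genes, with a median of 19.3 against 23.7 for all genes, and 240 of the 472 were under 20. In Lean, 62 genes were called in each direction (0.653% each). Lean had 4 and 5 plates, with which ranges overlap more readily, so the counts of the genotypes are not comparable. The share of calls that were higher was 26.0%, but 40.7% after TMM scaling and 46.5% after median-of-ratios scaling, which moved the median of all genes to 0.02 and 0.05.

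Antigen presentation had the highest median difference of the 25 pathway lists. Of its 21 members over the floor, 7 were higher and 0 lower, against the 1.75% called higher among all genes, and all 21 differences were positive with a median of 0.71. The called members were the MHC class II chains H2-Aa and H2-Eb1, the invariant chain Cd74 that guides class II molecules to the endosome, the class I genes H2-Q6, H2-Q7 and H2-T23, and Psmb9, a catalytic subunit of the immunoproteasome. In Lean the same list had 0 calls and a median of 0.13, but without the Lean 6-week plate 058s, an alternative chosen after the data were seen, the median was 0.53 and H2-DMb1 was called higher. The difference between genotypes was not tested.

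Promoter windows of 6 of the 7 called members were found in the RefSeq GRCm38.p6 table, and the stretches below are shown because they hold the letters of classical MHC promoter boxes in genes of the called set. Capitals mark the Y box (CTGATTGG, or CCAATCAG on the other strand) and, where present, the core of the X box (GCAACT, or AGTTGC on the other strand), and each run reads 5′ to 3′ on the strand of its gene. H2-Aa lies at chr17:34287855-34287914 on the minus strand, H2-Eb1 at chr17:34305765-34305824 on the plus strand, H2-Q7 at chr17:35439099-35439154 on the plus strand, H2-T23 at chr17:36032734-36032793 on the minus strand and Psmb9 at chr17:34187331-34187381 on the minus strand. The window of H2-Q6, a near-identical copy of H2-Q7, also held the Y box and is not shown.
H2-Aa: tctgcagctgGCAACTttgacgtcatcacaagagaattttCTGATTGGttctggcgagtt
H2-Eb1: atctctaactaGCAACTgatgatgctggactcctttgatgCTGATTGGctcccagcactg
H2-Q7: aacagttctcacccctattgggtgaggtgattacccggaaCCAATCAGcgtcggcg
H2-T23: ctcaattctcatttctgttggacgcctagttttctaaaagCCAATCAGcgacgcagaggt
Psmb9: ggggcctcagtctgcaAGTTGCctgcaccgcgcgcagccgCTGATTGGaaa
The Y box was searched on both strands over the 250 bases before each start. It was present in 6 of the 6 called members and in 8 of the 17 list members with a window, against 3.83% of 32851 windows. For each motif a member counted if any of its windows held the letters, whereas the percentages are over single windows. The X box core was present in 3 of the 6 and 4 of the 17 (9.01% of windows), and the interferon-stimulated response element in 1 of the 6 and 3 of the 17 (2.98%). These are matches of letters and not measured binding sites. The X and Y boxes are classical for MHC promoters, so their excess in this list was likely beforehand and says nothing on the change with age.

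The class II genes moved together across plates. Cd74 was at 117, 64.8 and 53.5 on plates 062s, 066s and 067s and at 156, 210.5, 493 and 439 on plates 1052s, 1053s, 1054s and 1056s, a difference of 1.96. H2-Eb1, the class II beta chain of the E locus (chr17:34305867-34316674), was at 33.4, 28.9 and 28.0 and then at 80.3, 101, 201 and 181, a difference of 2.09. Both genes were lowest on the 6-week plates and highest on plates 1054s and 1056s, with plates 1052s and 1053s between. H2-Aa, the alpha chain of the A locus, was at 71.2, 37.4 and 26.1 and then at 85.2, 103, 231 and 227, a difference of 1.81. Its partner H2-Ab1 was at 104, 64.0 and 72.6 and then at 104, 200.4, 321 and 370.4, a difference of 1.49 that was not called because plates 062s and 1052s met. H2-DMa and H2-DMb1, which load peptides onto class II molecules, differed by 1.77 and 1.27 with overlap and were not called. Ciita, the class II transactivator, was under the floor.

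The counting error of these levels was small beside the spread of plates. Cd74 pooled over all cells was at 76.8 (exact Poisson 95% interval 76.0 to 77.6) at 6 weeks and at 342 (340.4 to 344) at 11 weeks, an interval for counting error only. The gene was spread over many cells: after thinning, 31.1% to 38.7% of cells per plate carried a Cd74 count at 6 weeks and 56.5% to 93.8% at 11 weeks, and for H2-Eb1 the shares were 17.7% to 19.8% and 36.0% to 62.5%.

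Of the class I genes, H2-Q6, H2-Q7 and H2-T23 were called. H2-Q7 was at 97.1, 65.3 and 59.5 and then at 149, 169, 332 and 282, a difference of 1.60. H2-Q6 differed by 1.52, but H2-Q6 and H2-Q7 are near-identical copies whose reads the counting could split, so each is uncertain. H2-T23, a non-classical class I gene, was at 196, 156 and 174 and then at 208, 262, 306 and 334, a difference of 0.64, and was not called after TMM scaling. The classical chains H2-K1 and H2-D1 differed by 0.67 and 0.55 with overlapping plates and were not called. B2m, the light chain of class I molecules, differed by 0.36 and was not called. Psmb9 was at 69.2, 63.7 and 58.6 and then at 80.0, 117, 109 and 119, a difference of 0.71 with no overlap.

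**Figure D1:**
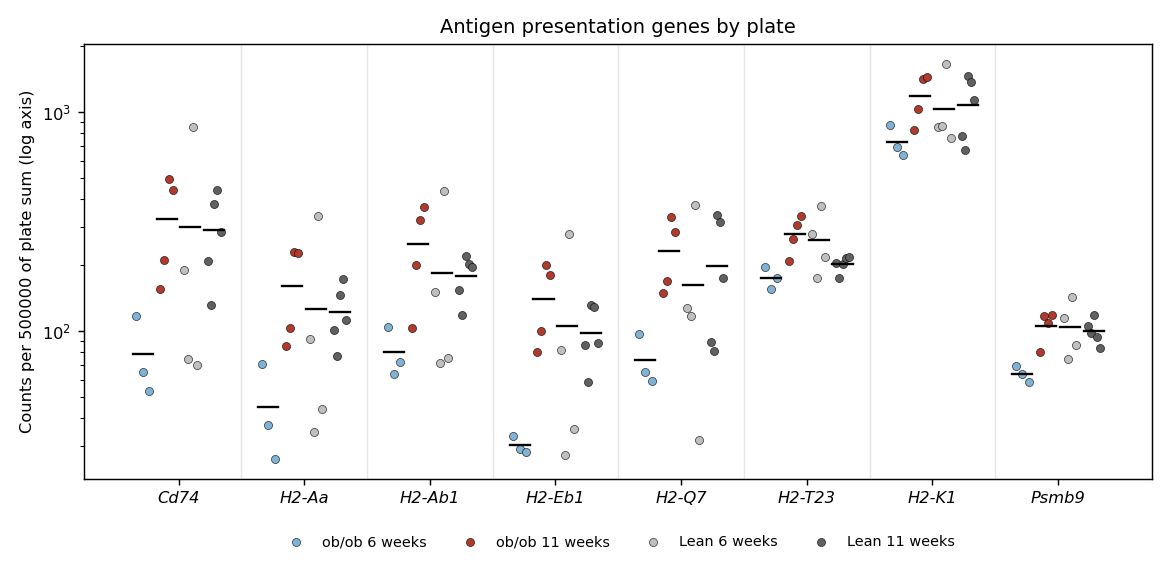
Levels of 8 antigen presentation genes (counts per 500000 of the plate sum, log axis) by genotype and age, 1 point per plate and a bar at the mean. The red ob/ob 11-week points sit above the blue 6-week points for the called genes such as Cd74 and H2-Eb1, while the grey Lean plates overlap between the ages, with plate 058s as the high 6-week point.

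Among the Lean plates of 6 weeks, plate 058s stood far above the others for class II. Cd74 was at 855 on plate 058s and at 70.4 to 191 on the other 3, against 132 to 442 on the Lean plates of 11 weeks, and the ob/ob plates of 20 weeks from 158 to 384. H2-Eb1 was at 277 on plate 058s, at 27.3 to 81.9 on the other 3 and at 58.7 to 131 at 11 weeks, so that plates 1054s and 1056s were above every 11-week Lean plate. The summed list was 4554, 3633 and 3659 at 6 weeks and 4692, 5846, 7796 and 7909.8 at 11 weeks in ob/ob, against 4147 to 5233 and, on plate 058s, 9546 in Lean at 6 weeks and 4341 to 7402 at 11 weeks.

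The count of called antigen presentation members moved with the plates used. It was 7 with plates 1052s and 1053s alone, of which 6 were the same genes, 19 with plates 1054s and 1056s alone, and 7 with plate 062s as the only 6-week plate. It was 12 without plate 062s and 15 without plate 1052s. Over all genes the same settings, in order, gave 811, 759, 611, 335 and 321 higher calls, against 166 with all plates. Without cells carrying leukocyte or tubular markers the count of members was 8, with all 7 genes of the full comparison among them, and leukocyte markers were near 0. The paper reports MHC class II molecules and Cd74 as enriched in PCEC. The PCEC markers Plvap, Il33, Car8 and Igf1 summed to 1941, 1202 and 1345 at 6 weeks and to 1418, 2102, 3198 and 3043 at 11 weeks. These sums were highest on the same plates 1054s and 1056s. The paper's counts of annotated cells give PCEC a larger share of these ob/ob cells at 11 weeks than at 6 weeks. The part of PCEC in the result was not tested. Plvap-positive cells had Plvap at 50 or more, and fewer than 4 of 7 GEC and 4 of 7 lymphatic markers at 5 or more. This is a range of a score and not a type. They made up 52.0% to 91.4% of each plate, and cells with arteriolar markers were not removed. Among them, 6 members were called, 5 of them in common with the full comparison. Among cells with at least 4 of 7 GEC markers and fewer than 4 of 7 lymphatic markers, 4 were called, namely H2-K1, H2-Q6, H2-Q7 and Psmb10. Such cells numbered 30, 70 and 94 on plates 062s, 066s and 067s and 21, 24, 27 and 18 on the 11-week plates. Of all 1542 cells, 574 had 3 or 4 of the 7 markers and so lay next to the cut.

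Interferon-responsive genes gave no higher call. Of 33 members, 0 were higher and 2 lower, near the 1.75% and 4.97% of all genes, with a median of -0.10. Ifit1, an RNA-binding antiviral protein, was at 76.0, 81.7 and 70.3 and then at 37.4, 28.0, 51.7 and 55.8, a difference of -0.85. Gbp7, an interferon-induced GTPase, fell by 0.62 on the log2 scale. The list split by plate pair: 11 lower and 2 higher with plates 1052s and 1053s alone, but 0 lower and 4 higher with plates 1054s and 1056s alone. After median-of-ratios scaling the median was 0.03, neither gene was called and Ifi27 and Bst2 were called higher.

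Some genes of fatty acid uptake and binding were higher at 11 weeks. Of the 26 members of the fatty acid list over the floor, 5 were called higher and 1 lower, against 1.75% and 4.97% of all genes, with a median of 0.13. The higher genes were Gpihbp1, which holds lipoprotein lipase at the capillary surface, Cd36, a fatty acid translocase, Fabp4 and Fabp5, cytosolic fatty acid-binding proteins, and Apoe, an apolipoprotein bound by lipoprotein receptors.

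Gpihbp1 (chr15:75596628-75599481) was at 217, 210.2 and 183 on the 6-week plates and at 443, 452, 399 and 357 on the 11-week plates, a difference of 1.01. Every 11-week plate was above every Lean plate of either age, which ranged from 135 to 294. Fabp4 was at 371, 348 and 346 and then at 742, 868, 496 and 512, a difference of 0.84, higher on plates 1052s and 1053s than on the other pair. Fabp5 was at 31.5, 17.7 and 18.5 and then at 65.5, 72.4, 51.8 and 48.2, a difference of 1.39, and its Lean difference was 0.72 with overlap. Both Fabp genes were highest on plate 1053s. Cd36 was at 241, 199 and 251 and then at 386, 360.2, 386 and 313, a difference of 0.65. Apoe was at 144, 123 and 118 and then at 158, 185, 276 and 203, also a difference of 0.65.

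Other steps of fatty acid handling gave 1 call, in the opposite direction. Slc27a4, a fatty acid transport protein, was lower, at 6.17, 10.7 and 18.3 and then at 5.38, 5.00, 5.26 and 3.48, a difference of -1.03 at levels near the floor. Enzymes of mitochondrial oxidation were not called: Cpt1a, which admits long-chain fatty acids to the mitochondrion, differed by -0.11, Acadm by -0.05, Hadha by -0.19 and Acadvl by 0.28. Pparg, a nuclear receptor that senses fatty acids, differed by 0.13. Lpl was at 3.41, 21.7 and 18.9 and then at 22.7, 3.76, 0.595 and 0.765 with overlap. The summed list was 2439, 2309 and 2145 and then 3078, 3484, 3183 and 3253, with no overlap, against 2084 to 2332 and 2379 to 2807 in Lean. With plate 062s as the only 6-week plate, Fabp4, Fabp5 and Gpihbp1 were still called, and Cd36 and Apoe were not. With plates 1052s and 1053s alone the higher genes were the same without Apoe, and with plates 1054s and 1056s alone 9 members were higher and 3 lower, with Fabp4 not among them.

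Pfkfb3 was the only called member among 20 glycolysis and glucose entry genes, beside 1.75% of all genes called higher. It makes fructose 2,6-bisphosphate, the activator of phosphofructokinase. It was at 13.6, 15.1 and 13.8 and then at 36.9, 29.2, 40.5 and 72.0, a difference of 1.51, whereas Lean plates were at 18.9 to 33.3 and 12.8 to 32.6. The 6-week ob/ob plates thus lay below every 6-week Lean plate and plates 1052s, 1054s and 1056s above every 11-week Lean plate. Pfkfb3 was called under each alternative listed in the closing section, GEC-marked and Plvap-positive cells included. After thinning, the share of cells with a Pfkfb3 count overlapped, at 8.13% to 18.7% on the 6-week plates and 17.0% to 22.6% on the 11-week plates. The top 5 cells of each plate held 58.3% to 79.3% of its counts at 6 weeks and 36.8% to 60.6% at 11 weeks. The other members were positive in 16 cases and negative in 3, with a median over the list of 0.39. Without plate 062s, 7 members were called, with Slc2a1, the main glucose transporter of EC, among them.

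**Figure D2:**
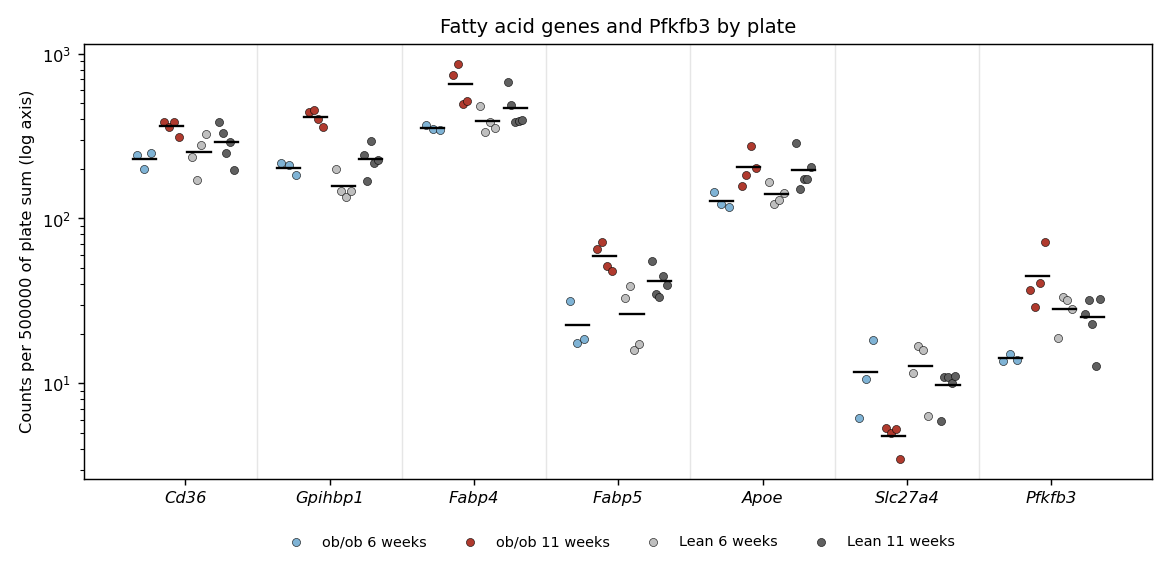
Levels of the called fatty acid genes and of Pfkfb3 (counts per 500000 of the plate sum, log axis) by genotype and age, 1 point per plate and a bar at the mean. The ob/ob 11-week plates of Gpihbp1 lie at 357 to 452, above the 6-week ob/ob plates at 183 to 217 and above all Lean plates, and Slc27a4 is the gene with the opposite direction.

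Summed arteriolar markers were lower at 11 weeks. The paper's counts of annotated cells also hold fewer AA and EA cells among these ob/ob cells at 11 weeks. Whether fewer cells account for the lower sums was not tested. The 5 AA markers summed to 571, 832 and 642 at 6 weeks and to 518, 324, 359 and 287 at 11 weeks, with Fbln5 and Cxcl12 called lower. The 4 EA markers summed to 246, 248 and 222 and then to 159.7, 119, 77.6 and 100.4, with Tspan8, Npnt and Aif1l called lower, against 4.97% of all genes called lower. In Lean the AA sums were 578 to 777 and then 383 to 642, and the EA sums 170 to 307 and then 110 to 240. Lean had no called member in either list, and its median differences were negative too, at -0.35 and -0.41, beside -1.07 and -1.08 in ob/ob. Fbln5, an elastic fibre protein, was at 243, 326 and 247 and then at 190.3, 114, 131 and 119, a difference of -0.99. Cxcl12 (chr6:117168535-117181367), a chemokine of arterial EC, was at 48.8, 72.1 and 99.0 and then at 22.6, 17.2, 23.2 and 15.4, a difference of -1.81. In Lean, Cxcl12 was at 49.1 to 96.4 and 38.9 to 58.1, so the 11-week ob/ob plates were below every Lean plate.

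Of the EA genes, Aif1l fell by 1.07 on the log2 scale but was not called after median-of-ratios scaling. Tspan8, a tetraspanin, was at 84.4, 90.3 and 67.0 and then at 51.2, 17.9, 28.6 and 16.5, a difference of -1.60. Npnt, a matrix ligand of an integrin, was at 79.4, 88.6 and 86.3 and then at 74.3, 39.1, 30.1 and 28.1, a difference of -1.08. Plate 1052s was the nearest to the 6-week plates for both genes. Calca, which encodes calcitonin gene-related peptide, was at 35.9, 43.0 and 43.4 and then at 10.8, 49.0, 6.31 and 45.0 and overlapped.

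Of the other segments, 1 of 3 DVR markers was lower (Scin, an actin-severing protein, by 0.64 on the log2 scale), 0 of 6 GEC markers and 0 of 4 venous markers were called, and among PCEC markers Car8 was higher by 1.32 and Igf1 lower. Among all genes, 4.97% were called lower and 1.75% higher. GEC markers summed to 1899 to 2203 at 6 weeks and 1374 to 2242 at 11 weeks. Plvap, which forms the diaphragms of fenestrae, was at 1782, 1136 and 1276 and then at 1263, 1984, 3031 and 2909, with overlap. The share of cells with at least 2 EA markers at 50 or more was 12.0%, 10.7% and 9.92% on the 6-week plates and 6.45%, 6.50%, 4.46% and 2.29% on the 11-week plates, but the mixing of markers on plates 066s and 067s bears on such shares. With plate 062s as the only 6-week plate, and with either pair of 11-week plates alone, Fbln5, Cxcl12 and the 3 EA genes were again called lower. With fewer plates only the fold and the floor could have ended these calls. Without cells carrying leukocyte or tubular markers, both AA genes were called and 0 of 4 EA genes were. Among Plvap-positive cells, Fbln5, Cxcl12 and Aif1l were called lower, and Tspan8 and Npnt were not.

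**Figure D3:**
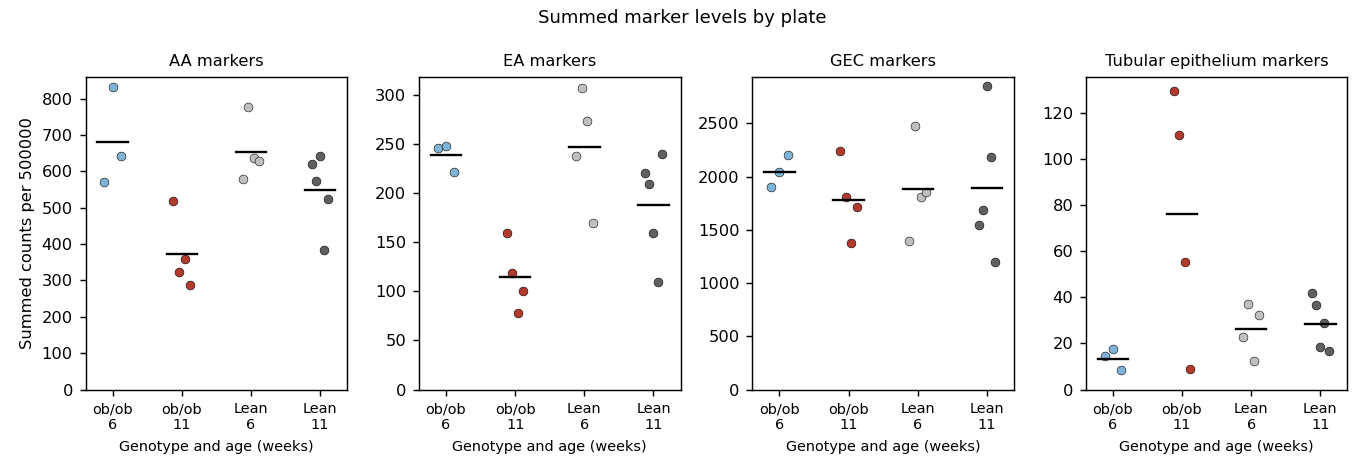
Summed marker levels (counts per 500000 of the plate sum) by genotype and age, 1 point per plate and a bar at the mean. The AA and EA sums of the ob/ob 11-week plates lie below those of the 6-week plates, the GEC sums overlap, and the tubular epithelium sums are high on 3 of the 4 ob/ob 11-week plates.

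Immediate early genes, which are induced within minutes by stimuli and by tissue dissociation, were called lower in 4 of 19 cases at 11 weeks, against 4.97% of all genes. None of the 19 differences was positive and the median was -0.68, while the summed list overlapped, at 5564 to 7302 and then 3713 to 5623. Egr1, a zinc-finger transcription factor, was at 475, 713 and 719.8 and then at 425, 253, 271 and 197, a difference of -1.18. Fos, a subunit of AP-1, was at 864, 960.5 and 898 and then at 709, 432, 590.4 and 487, a difference of -0.73. Plate 1052s had the highest 11-week level of both. Ier3 and Ppp1r15a, which recruits a phosphatase to eIF2α, were lower too, Ier3 by 0.92 on the log2 scale and Ppp1r15a from 205, 306 and 305 to 182, 108, 129 and 124. Lean moved the same way, with a median of -0.71, 5 members called lower and Egr1 and Ier3 called in both genotypes. The count was 11 without plate 062s and 13 without plate 1052s. With plates 1052s and 1053s alone, and with plate 062s as the only 6-week plate, the same 4 genes were called, and with plates 1054s and 1056s alone 16. Among Plvap-positive cells only Ier3 was called. The paper annotated GEC and PCEC classes with relatively high immediate early genes, and counted fewer such ob/ob cells at 11 weeks than at 6 weeks.

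Genes of the insulin and IGF axis were lower in 4 of 20 cases and higher in none, against 4.97% and 1.75% of all genes, with a median of -0.36. Igf1, the growth factor, was at 29.5, 26.5 and 28.0 and then at 25.3, 13.1, 20.6 and 11.1, a difference of -0.72. Foxo1, a transcription factor held out of the nucleus by insulin signaling, was at 58.9, 75.0 and 59.0 and then at 36.3, 41.6, 52.9 and 34.8, a difference of -0.63. Igf2r, which clears IGF2, fell by 0.89 on the log2 scale. The kinase and receptor genes Insr, Igf1r, Akt1 and Mtor were not called, with differences of 0.41, -0.64, -0.28 and 0.38, nor were Igfbp3, Igfbp5 and Igfbp7, with differences of -0.19, -0.39 and -0.39. After median-of-ratios scaling, Igf1 and Igf2r were called and Foxo1 was not. With plates 1052s and 1053s alone 6 members were lower, and with plates 1054s and 1056s alone, or plate 062s as the only 6-week plate, 4 were lower and 1 higher, each with 3 of the 4 genes of the full comparison.

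Among 20 genes of vascular tone, 4 were lower and 0 higher, against 4.97% and 1.75% of all genes, with a median of -0.23. Calcrl, the receptor for adrenomedullin and calcitonin gene-related peptide, was at 218, 310.0 and 284 and then at 131, 179, 104 and 67.8, a difference of -1.23. Its ligand Adm was at 23.2, 21.4 and 27.7 and then at 21.3, 10.3, 4.65 and 16.4, a difference of -0.99 whose plates nearly met. Ramp2, the accessory protein that makes Calcrl an adrenomedullin receptor, was not called at 0.08. Trpv4, a calcium channel opened by stretch, was at 53.5, 37.7 and 60.4 and then at 25.5, 32.2, 29.5 and 30.1, and Ptger4, a prostaglandin E2 receptor, differed by -1.40. Nos3, which makes nitric oxide, was at 71.5, 109 and 153 and then at 122, 139, 128 and 78.9, and Edn1, the vasoconstrictor endothelin, at 88.0, 109 and 57.0 and then at 42.4, 29.6, 60.1 and 37.7. Neither was called. The 20-week ob/ob plates were at 111 to 252 for Calcrl, and Lean plates at 127 to 185 at 6 weeks and 93.3 to 235 at 11 weeks. The 6-week ob/ob plates thus lay above every 6-week Lean plate. At 11 weeks only plate 1056s lay outside the Lean range, below it. The same 4 genes were called lower with either pair of 11-week plates alone, among 5 and 7 lower members. With plate 062s as the only 6-week plate Ptger4 was not called.

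Growth factor and matrix genes gave few calls, with 1 or 2 lower members per list beside the 4.97% of all genes called lower. In the list of VEGF, angiopoietin and Notch genes, Flt4 was higher and Vegfc and Jag2 lower of 29. Flt4, the receptor for the lymphatic growth factor Vegfc, was at 105, 93.8 and 143 and then at 201, 207, 207 and 154, a difference of 0.76. Vegfc was at 24.6, 28.2 and 20.5 and then at 17.1, 5.08, 7.57 and 15.4, a difference of -1.18. The receptor and its ligand thus differed in opposite directions. Kdr, the main VEGF receptor, was at 748 to 912 at 6 weeks and 764 to 892 at 11 weeks.

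Tgfb2, a transforming growth factor, was at 28.9, 51.4 and 35.4 and then at 17.5, 11.1, 5.56 and 16.7, a difference of -1.60, and with Cyr61, a matricellular protein, made 2 lower of 24 in the list of TGF-β and BMP genes. Of 30 basement membrane and matrix genes, Fbln5 and Lox were lower, with a median of -0.41. Lox, which cross-links collagen and elastin, was also called lower in Lean. Of 20 glycocalyx genes, Sdc1, a cell-surface proteoglycan, and Sulf1, an endosulfatase, were lower by 1.78 and 0.88 on the log2 scale. Cav2, a caveolin, was at 349, 291 and 322 and then at 237, 174, 132 and 119.7, with no overlap, and was the only lower gene of 13 in the list of fenestrae and caveolae.

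**Figure D4:**
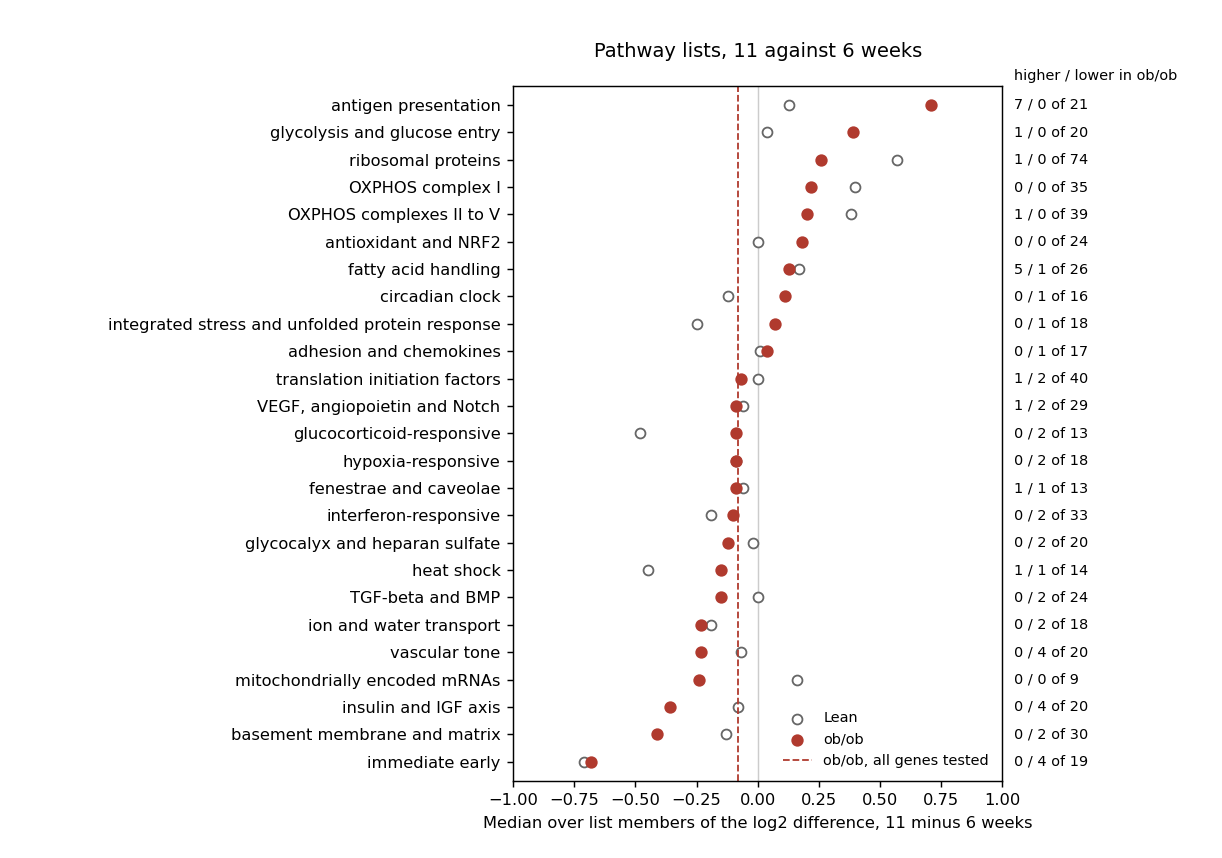
Median log2 difference, 11 minus 6 weeks, over the members of 25 pathway lists in ob/ob (filled) and Lean (open), with the ob/ob median of all genes tested as a dashed line and the numbers of ob/ob members called higher and lower at the right. Antigen presentation has the highest ob/ob median at 0.71 and immediate early genes the lowest at -0.68, and for the latter the Lean median lies beside it.

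OXPHOS and ribosomal protein genes split the 11-week plates into pairs. The 35 complex I genes, which encode the NADH dehydrogenase of the respiratory chain, summed to 1199, 1542 and 1602 at 6 weeks and to 2552, 2455, 1273 and 1106 at 11 weeks. None was called and the median was 0.22. With plates 1052s and 1053s alone 28 of 35 were higher, with a median of 0.98, and with plates 1054s and 1056s alone 8 were lower and 1 higher, with a median of -0.61. Over all genes, the first pair alone gave 811 higher calls, and the other pair 759 higher and 1677 lower. The 74 ribosomal protein genes summed to 5282, 6395 and 5685 and then to 9163, 10269.9, 5442 and 4701, with Rpl12 called higher. With the first pair alone 59 were higher, and with the other pair 11 were lower and 1 higher. Plates 1052s and 1053s were also those on which 44.1% and 39.0% of cells carried 50 or more tubular epithelium counts, against 1.43% to 9.38% elsewhere. Without cells carrying leukocyte or tubular markers the split was as large, with complex I sums of 1198, 1551 and 1602 and then 2606, 2525, 1284 and 1102. The 11-week Lean plates 1050s and 1051s were likewise above the other 3, with complex I sums of 2837 and 2491 against 1209 to 1691 and ribosomal protein sums of 12490.2 and 10282.5 against 5792 to 7888, at tubular epithelium sums of 41.8 and 36.8. Of complexes II to V, Atp5g3, a subunit of the ATP synthase ring, was higher of 39, beside 1.75% of all genes. Of the mitochondrially encoded mRNAs 0 of 9 were called.

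**Figure D5:**
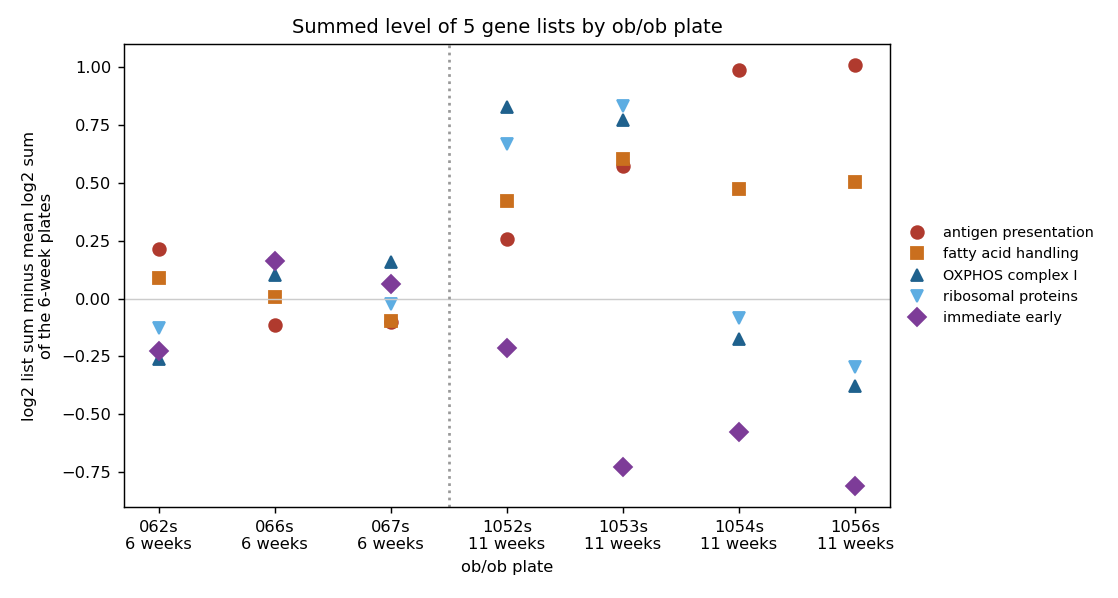
Summed levels of 5 gene lists on each ob/ob plate, on a log2 scale relative to the mean of the 6-week plates. Complex I and ribosomal protein sums are high on plates 1052s and 1053s and not on plates 1054s and 1056s, antigen presentation sums are highest on plates 1054s and 1056s, and fatty acid sums are above 0 on all 4 11-week plates.

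The remaining lists held at most 3 called genes each, beside 1.75% of all genes called higher and 4.97% lower. These few calls are not read as changes of a whole list. After TMM and after median-of-ratios scaling, Eif3a, Eif3e, Hspa1a, Bnip3 and Piezo1 were not called, nor were Scin and Sulf1 given above. Eif4ebp1, a repressor of translation initiation, was higher by 0.77 and the initiation factor subunits Eif3a and Eif3e lower by 0.63 each on the log2 scale, of 40 translation initiation genes. Dnajb9, a chaperone of the endoplasmic reticulum, was at 151, 137 and 136 and then at 88.5, 46.5, 63.5 and 85.4, the only called gene of 18 in the unfolded protein response list. Of 14 heat shock genes, Cryab, a small heat shock protein, was higher, at 10.1, 14.1 and 9.20 and then at 40.8, 44.2, 24.6 and 15.0, and Hspa1a was lower by 0.66 on the log2 scale. The mitophagy receptor Bnip3 and Adm were lower of 18 hypoxia-responsive genes, the mechanosensitive channel Piezo1 and Trpv4 of 18 ion and water transport genes, and Zbtb16 and Errfi1 of 13 glucocorticoid-responsive genes. The nuclear receptor Rora was lower of 16 clock genes and Cxcl12 of 17 adhesion and chemokine genes. No gene of 24 in the antioxidant list was called.

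The gene with the largest difference was in few cells. Hs3st6, a heparan sulfate sulfotransferase, was at 0.405, 0.794 and 3.05 and then at 23.0, 21.2, 15.8 and 12.2, a difference of 3.10, and Lean plates reached at most 4.42. Only 4.29% to 11.8% of cells carried a count of it on the 11-week plates, and the top 5 cells of each plate held 66.9% to 92.4% of its counts. Its pooled level was 1.63 (exact Poisson 95% interval 1.51 to 1.75) and then 17.3 (16.9 to 17.7). Among GEC-marked cells it stayed at or under 0.732 on every plate.

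Aqp2, the water channel of the collecting duct, was at 0.596, 0.00903 and 0 and then at 15.3, 23.8, 0.999 and 1.98, a difference of 2.58. It is itself a member of the tubular epithelium list, by whose sum cells were removed. Without cells carrying leukocyte or tubular markers its difference was 0.43 and not called, a fall that this choice of cells brings about by construction. Slco4a1, an organic anion transporter, was at 30.9, 11.3 and 11.2 and then at 137, 95.1, 35.0 and 48.2, a difference of 2.05. Serpina3n, a protease inhibitor of the acute phase, was at 0.604, 4.14 and 7.04 and then at 35.4, 11.9, 12.1 and 11.0, a difference of 2.03. The remaining genes of the 12 largest higher were Ache, Nbl1, Zbtb42 and H2-Q5, with differences of 1.87, 1.82, 1.77 and 1.65, beside the antigen presentation genes given above. Most of these were also in few cells. On the 11-week plates the top 5 cells held 82.5% to 99.0% of Serpina3n counts and 82.5% to 98.9% of Ache counts. They held 98.8% to 99.7% for Nbl1 and 75.3% to 97.6% for Zbtb42, against 37.9% to 75.7% for Slco4a1 and 28.2% to 46.4% for H2-Q5.

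Atp13a3, a transporter of polyamines, was the most strongly lower gene, at 51.7, 64.8 and 57.6 and then at 32.7, 19.2, 2.50 and 7.21, a difference of -2.31. Plates 1054s and 1056s were the lowest, and Lean plates were at 22.2 to 55.4 and 20.4 to 42.7. Mall, a membrane raft protein, was at 14.1, 12.7 and 23.5 and then at 1.86, 3.56, 4.87 and 2.08. Pramef8 was at 38.3, 39.4 and 45.3 and then at 9.69, 11.8, 7.12 and 11.7, and was called lower in Lean too, at -1.19. The other genes of the 12 largest lower were Lox, Fam126b, Ccdc3, Ibtk, Lyplal1, Dusp18, Zfp40, Zfand1 and Tab2, with differences from -2.11 to -1.92. Lox and Ccdc3 were also called lower in Lean. On the 6-week plates the top 5 cells held 87.0% to 94.2% of Lox counts and 93.9% to 99.3% of Ccdc3 counts, against 26.6% to 38.4% for Atp13a3.

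Part of the pattern was shared with the same comparison of ages in Lean. In Lean, as in ob/ob, age cannot be told apart from plate. Whether the shared part came from age or from plate was therefore not tested. Of the 166 genes called higher in ob/ob, 115 (69.3%) were positive in Lean, against 49.8% of all genes, with a median Lean difference of 0.21 beside 0.84 in ob/ob. Of the 472 called lower, 361 (76.5%) were negative in Lean, against 50.2% of all genes, with medians of -0.24 and -0.92. Called in both were 2 higher genes, Lrp5 and Rhod, and 12 lower genes, among them Egr1, Ier3, Lox, Ccdc3, Pramef8 and Arrb1, which is 1.20% and 2.54% of the ob/ob calls and 3.23% and 19.4% of the Lean calls. Whether any difference between the ages was larger in ob/ob than in Lean was not tested.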

How the data were processed

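The authors trimmed SmartSeq2 reads with trim galore, aligned them with TopHat2 2.1.1 to GRCm38 (mm10), removed duplicates with SAMtools 0.1.18 and counted reads per gene with featureCounts (Subread 1.4.6-p5). They removed cells under 50000 counts and epithelial cells, and deposited the raw counts per gene and cell without normalization. Annotation release and strand setting are not given in the sources used here. Total counts per cell ranged from 50274 to 1489280, and 0 columns of the table were unused.

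Counts were summed per plate with Python 3.11.15 (pandas 2.3.3, numpy 2.4.6, scipy 1.17.1). Of 29735 genes, 26225 remained after leaving out those on chromosomes X and Y and those without a placed symbol. Symbols were placed through GENCODE M21 (26871 matched) or RefSeq synonyms (652). Sums were scaled to 500000 counts, with a pseudocount of 1, a floor of 5 on the mean of 7 plates and a fold of 1.5. No test was run, since each age was 1 sample. Intervals are exact at 95% and cover counting error only. No doublet caller was run, and cells with markers of several segments were kept.

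Named genes were the 12 largest called in each direction (without ribosomal protein, hemoglobin, mitochondrial and predicted genes), up to 4 called members of each pathway list and the 2 members of highest level. Marker genes, genes that overlap between lists and genes described for their role in a pathway were added after values were seen. The members, lists and rules were chosen with earlier results of these data known. Alternatives were scaling (TMM from edgeR 4.0.16, size factors from DESeq2 1.42.0), pseudocount, floor, fold, weight and depth of cells, cell ranges and each plate left out. The values of 1 list member are not reported here.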

Additional observations from a re-analysis of the deposited data

Results flagged for a closer look

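Among the 107 named genes, 4 had an 11-week ob/ob plate far from the other 3 by Dixon's 95% limit for 4 values. Chance meets this limit in about 1 in 20 groups, a share that 4 of 107 does not exceed. Serpina3n was at 35.4 on plate 1052s against 11.0 to 12.1 on the others. Rora was at 14.9 on plate 1052s against 10.9 to 11.2, and Slc6a6, a taurine transporter that was not called, at 626 on that plate against 793 to 809. Flt4 was at 154 on plate 1056s against 201 to 207.

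Ubp1, a transcription factor, was called in opposite directions, lower in ob/ob at -0.85 and higher in Lean at 0.65. The difference between the genotypes was not tested.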

How the results depend on the processing

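All 166 higher and 472 lower genes kept their sign under both other scalings, equal cell weight and thinned depth; for pseudocount, floor, fold and left-out plates the calling rule fixes the sign. TMM moved the median of all genes from -0.08 to 0.02, with 235 higher and 342 lower, and median-of-ratios scaling to 0.05, with 271 and 312. A floor of 20 gave 95 and 232, and a fold of 2 gave 51 and 200. Leaving out 1 plate gave 220 to 335 higher and 577 to 917 lower, the most without plate 062s and then without 1052s (321 and 852); fewer plates overlap less by construction. Plates 1052s and 1053s alone gave 811 and 876, plates 1054s and 1056s alone 759 and 1677, and plate 062s as the only 6-week plate 611 and 946, again with fewer plates. Among GEC-marked cells, only 18 to 94 per plate, 146 and 471 were called, of which 27 and 103 were shared. In these few cells Eif4ebp1 (-0.05), Igf2r (0.05) and Foxo1 (0.08) changed sign. Plvap-positive cells gave 170 and 445 (87 and 276 shared), and cells without leukocyte or tubular markers, a range chosen after the data were seen, 190 and 474 (121 and 306 shared). No paired analysis was possible because the result comes from no test and the plates of the ages share no number. With 1 sample per age, the data cannot show whether plates stand for animals, and genes near the floor, where few cells carry counts, are the least certain.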
